A study of Homo sapiens with 6 samples.

Results

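The 4 genes described here, CD83, C4BPA, FCMR and CD177, encode proteins best known from leukocytes and plasma, and were read in MKN28, a human gastric cancer epithelial line that registries list as derived from MKN74. They were taken by gene name from the authors' deposited table, which holds 426 genes called as changed, so the 4 genes are 4 of 426. RNA-seq had been run on 3 MKN28 samples carrying a control vector and 3 carrying short hairpin RNA against VPS35 (shVPS35), the core subunit of the retromer complex that recycles membrane proteins out of endosomes. The design text calls the samples biological replicates. The sources used here do not say whether the shVPS35 samples share 1 hairpin sequence or 1 clone, or how long they were grown. The p-values therefore set each difference against the spread between these samples only. VPS35 loss cannot be told apart from other effects of the hairpin. The comparison asks how the transcripts differ once VPS35 is depleted.

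CD83 is an immunoglobulin superfamily glycoprotein that marks mature dendritic cells and is also found on activated lymphocytes and some epithelia. C4BPA encodes the alpha chain of C4b-binding protein, a plasma inhibitor that binds C4b and acts as a cofactor for factor I, which limits the classical and lectin pathways of complement. FCMR is the Fc receptor for IgM (earlier names TOSO and FAIM3), carried mainly by B cells. CD177 is a GPI-anchored neutrophil glycoprotein of the Ly6 and uPAR family that binds PECAM1 and holds proteinase 3 on the neutrophil surface.

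Expression is given as the value deposited per gene and sample, to 2 decimals. The header names no unit, so differences are read between samples of a gene. Between genes, values serve only for cutoffs and to call a gene low or high in this table. Over all listed genes the values of a sample summed to 5029 to 5130 in the vector group and to 4696 to 5004 in the shVPS35 group, and sequencing depth is unknown, since no read counts come with them. VPS35, the target that the labels name, was lower in every shVPS35 sample (11.8 to 15.6) than in every vector sample (64.3 to 67.2). Of the epithelial markers fixed for a check of the cell type (EPCAM, CDH1, keratins and others, 12 genes), ESRP1 alone is listed, and of 25 leukocyte markers (PTPRC, CD3E, MS4A1 and others) CD68 alone. The levels of the unlisted markers are not analysed here, so the table cannot show the cell type by its defining genes.

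The upstream sequences of the genes are shown first, as a description. CD83 and C4BPA are among 190 listed genes that rose, and FCMR lies close to C4BPA but fell. A shared cause was not tested. RefSeq sequences (GRCh38.p14) were found for 3 of the 4 genes, with 2 annotated starts for CD83, 1 for C4BPA and 2 for FCMR. Windows of 250 bases before and 50 after each start were searched on both strands for TGANTCA (AP-1), TTCNNNGAA (STAT), TATAAA (the core promoter box) and the NF-kB consensus, matches of which may overlap. The downstream CD83 window held 6 NF-kB matches, some overlapping, at 3 places. For both places nearest the start, a match is shown in capitals below. These matches begin 75 and 51 bases before the RefSeq start at chromosome 6, 14117772. Overlapping matches begin 76 and 74 bases before that start at the first place, and 50 bases before it at the second. GENCODE 29 begins a CD83 exon at 14117641, before both places. The transcript and the end of that exon were not checked.
CD83 first place, chr6:14117689-14117714, plus strand: gcccgccgGGGAATCCCCcgggctgg
CD83 second place, chr6:14117713-14117738, plus strand: ggcgcgcaGGGAAGTTCCcgaacgcg
The NF-kB consensus was in 11.3% of all 35116 RefSeq promoter windows of this length, and in 18.9% of the 3377 with a GC content of at least 75%. The CD83 window has a GC content of 81.3%. The C4BPA window and both FCMR windows held none of the 4 motifs. The upstream CD83 window held TATAAA only, which 11.5% of all windows hold, and 1.57% of those with a GC content of at least 75%. The GC content of this window is 37.0%, and the share among windows of like GC content was not computed. Both TATAAA matches lie far from that start, with first bases at -243 and -236. AP-1 matches were in 7.71% and STAT matches in 7.66% of all windows. The bases before the annotated starts of C4BPA and FCMR, in lower case as no motif was found, are given below, with FCMR cut where its GENCODE exons begin.
C4BPA, chr1:207103983-207104232, plus strand: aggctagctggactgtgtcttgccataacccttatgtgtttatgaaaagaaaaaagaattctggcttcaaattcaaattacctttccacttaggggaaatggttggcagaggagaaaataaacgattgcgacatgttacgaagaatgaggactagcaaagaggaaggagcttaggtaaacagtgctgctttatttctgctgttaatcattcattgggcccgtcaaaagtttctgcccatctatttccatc
FCMR upstream start, chr1:206923248-206923446, minus strand: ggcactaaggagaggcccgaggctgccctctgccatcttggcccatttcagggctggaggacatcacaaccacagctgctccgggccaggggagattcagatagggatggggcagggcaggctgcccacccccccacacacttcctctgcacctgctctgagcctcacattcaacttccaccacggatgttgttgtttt
FCMR downstream start, chr1:206921999-206922191, minus strand: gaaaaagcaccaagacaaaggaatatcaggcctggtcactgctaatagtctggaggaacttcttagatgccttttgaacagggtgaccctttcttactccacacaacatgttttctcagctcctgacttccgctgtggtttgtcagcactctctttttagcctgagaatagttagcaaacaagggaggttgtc
A match in these windows describes letters only, and no binding was measured.

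Among the 4 genes, CD83 and C4BPA were higher and FCMR and CD177 lower in shVPS35 than in vector samples. CD83 rose 2.56-fold and C4BPA 6.97-fold by the ratio of group means, while FCMR was at 48.7% and CD177 at 16.9% of the vector level. In bulk samples, fewer cells expressing a gene and less RNA per cell cannot be told apart. For each of the 4, all 3 samples of one group lay above all 3 of the other. So did 93.4% of the 426 listed genes, which were listed because they differed between these samples, so nothing is read from the separation. The authors' calls cover 2.65% of 16063 tested genes (1.18% higher and 1.47% lower in shVPS35), and the 4 genes belong to them by construction.

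**Figure D1:**
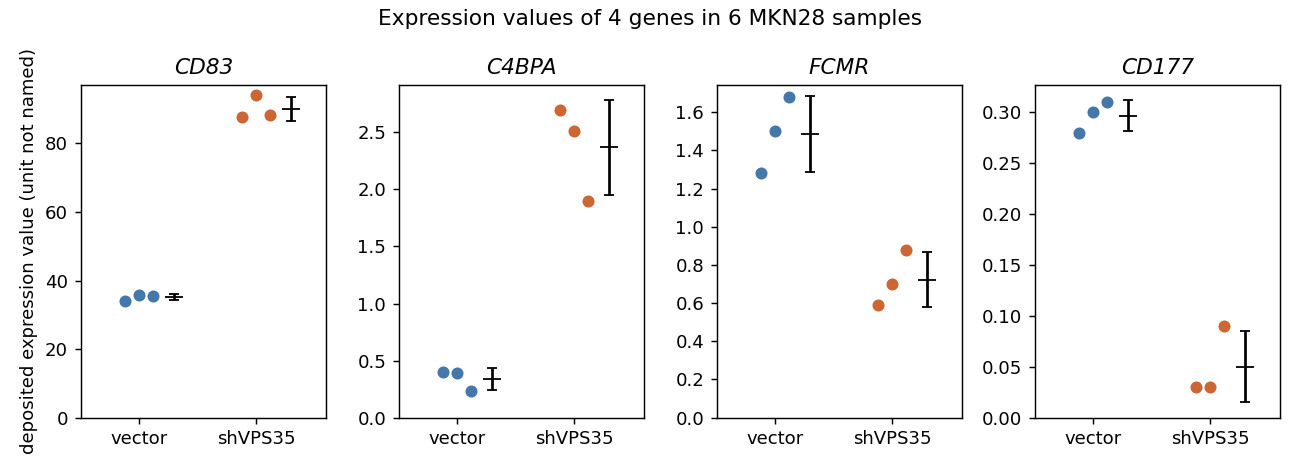
Deposited expression values (vertical axes, unit not named, each starting at 0) of CD83, C4BPA, FCMR and CD177 in the 3 vector (blue) and 3 shVPS35 (orange) samples. Points are samples and black marks are the group mean ± SD; CD83 lies at 34.2 to 35.9 in vector and 87.7 to 94.1 in shVPS35 samples, and the vertical scales differ between genes.

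In vector samples CD83 (ENSG00000112149; GRCh38, chromosome 6, 14117256 to 14136918, plus strand) was 34.2, 35.9 and 35.6, and in shVPS35 samples it was 87.7, 94.1 and 88.3. Every shVPS35 value was at least 2.44 times the highest vector value. The mean went from 35.2 ± 0.951 to 90.0 ± 3.53 (SD, n = 3 per group). The spread within a group was small, with coefficients of variation of 2.70% and 3.92%. For comparison, the median coefficient of variation was 5.53% in vector and 6.41% in shVPS35 samples among listed genes whose means reached 5 in both groups. As log2(value + 1), CD83 differed by 1.33 ± 0.05 (SE, 95% interval 1.22 to 1.44; limma adjusted p = 8.71e-08). CD83 had the 17th smallest p of the 426 genes in the authors' deposited table, but stood 123rd of the 190 higher genes by the size of the authors' log2 fold change, 1.32. GENCODE 29 annotates a processed pseudogene, CD83P1, and reads shared with it could not be separated.

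C4BPA (ENSG00000123838; chromosome 1, 207104262 to 207144972, plus strand) had values of 0.40, 0.39 and 0.23 with the vector and of 2.70, 2.51 and 1.90 with shVPS35. The lowest shVPS35 value was 4.75 times the highest vector value, and the third sample of each group was its lowest. The mean rose from 0.340 ± 0.0954 to 2.37 ± 0.418 (SD, n = 3 per group). The log2(value + 1) difference was 1.33 ± 0.12 (SE, 95% interval 1.04 to 1.61; limma adjusted p = 1.51e-05). C4BPA entered this test through its shVPS35 values alone, since the filter on low values asks for 3 samples at 1 or above and all its vector values are lower, so the p is no support for the difference. That this number equals the one for CD83 comes from the added 1, which shrinks low values, and with 0.1 added instead the differences were 2.50 ± 0.24 for C4BPA and 1.35 ± 0.05 for CD83 (SE; limma). The authors' deposited table gives C4BPA a log2 fold change of 2.55, the 28th highest of 190. GENCODE 29 annotates an antisense RNA, AL445493.3, that overlaps C4BPA, and pseudogenes named C4BPAP1 and C4BPAP2. Reads shared with them could not be separated in these values.

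FCMR (ENSG00000162894; chromosome 1, 206904386 to 206923247, minus strand) had values of 1.28, 1.5 and 1.68 with the vector and of 0.59, 0.70 and 0.88 with shVPS35. Of the 4 genes it had the narrowest gap between groups, with the lowest vector value 1.45 times the highest shVPS35 value. FCMR thus fell, with group means of 1.49 ± 0.200 and 0.723 ± 0.146 (SD, n = 3 per group). The log2(value + 1) difference was -0.53 ± 0.11 (SE, 95% interval -0.79 to -0.27; limma adjusted p = 0.00169). FCMR passed the same filter through its vector values alone, so this p is likewise no support. By the authors' deposited table the log2 fold change of FCMR is -1.48, whereas the ratio of these means gives -1.04. A gap of this size or more (0.44) between both figures was found in 53 of the 423 listed genes with both means above 0, against a median gap of 0.09. For the other members the gap was 0.03 (CD83), 0.25 (C4BPA) and 0.02 (CD177). The cause of the gap was not tested. A pair of processed pseudogenes, AC098935.1 and AC098935.2, overlap FCMR on the other strand.

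CD177 (ENSG00000204936; chromosome 19, 43353659 to 43363172, plus strand) was near the bottom of the scale, at 0.28, 0.30 and 0.31 with the vector and at 0.03, 0.03 and 0.09 with shVPS35. The vector values lay close together, with a coefficient of variation of 5.15%, while the shVPS35 values carry 1 significant digit and vary by 69.3%, so the size of the fall is loosely fixed. CD177 thus fell, with group means of 0.297 ± 0.0153 and 0.05 ± 0.0346 (SD, n = 3 per group), with the lowest vector value 3.11 times the highest shVPS35 value. CD177 did not reach the filter on low values, which 3 of the 4 genes and 292 of the 426 listed genes passed. In a limma fit without that filter its log2(value + 1) difference was -0.30 ± 0.05 (SE; limma adjusted p = 8.86e-04), where 95.8% of listed genes passed. With 0.1 added, a setting chosen after seeing the data, it was -1.43 ± 0.24 (SE; limma adjusted p = 8.26e-04). For CD177 the authors' deposited table gives a log2 fold change of -2.55 with an adjusted p of 0.0447, the 420th smallest p of the 426 genes and close to the limit of 0.05. An antisense RNA, AC005392.3, overlaps CD177 in GENCODE 29, which also annotates a pseudogene, CD177P1. The sources used here do not say whether the libraries were stranded.

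Every gene in the table had been called on the same 6 samples beforehand. Accordingly, 100% of the 292 genes tested with limma passed at an adjusted p of 0.05, and the limma p-values set each difference against the spread between samples without being independent evidence of change. An exact 2-sided permutation test of the 6 values gave p = 0.1 for each of the 4 genes, the smallest that 3 against 3 samples allow.

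**Figure D2:**
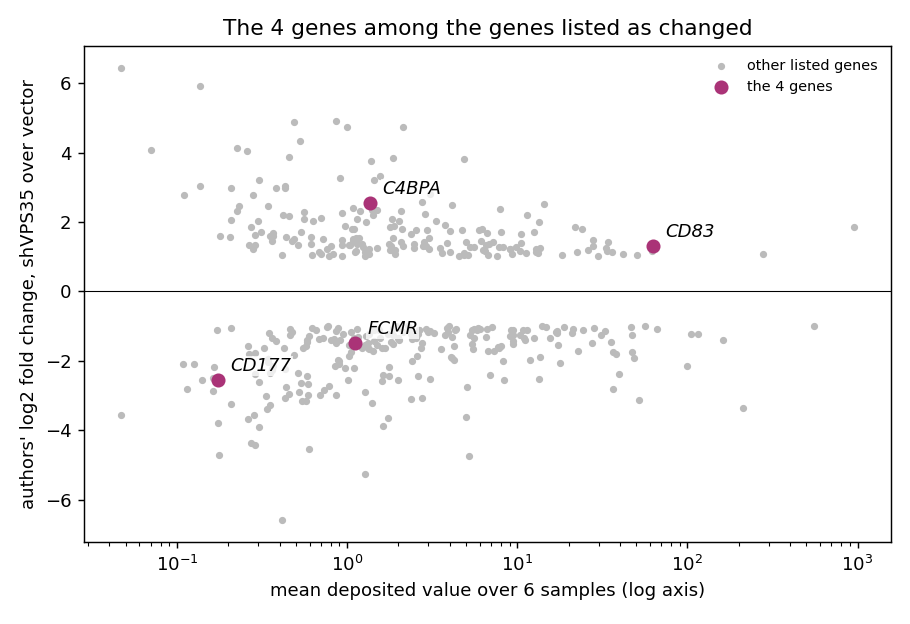
The authors' log2 fold change of shVPS35 over vector (vertical axis) against the mean deposited value over 6 samples (horizontal log axis) for the listed genes, with the 4 genes in purple. C4BPA and CD177 have the larger fold changes, 2.55 and -2.55, at low values, and CD83 a smaller one, 1.32, at a high value.

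The size of the difference depended on the scale far more for the 3 low genes than for CD83. From 0.1 to 5 added before the log, the CD83 difference went from 1.35 to 1.24, that of C4BPA from 2.50 to 0.46, that of FCMR from -0.95 to -0.18 and that of CD177 from -1.43 to -0.07. No direction changed. Over listed genes tested with 1 added, the median difference was 1.10 among those that rose and -1.01 among those that fell. CD83 and C4BPA lay above the first of these medians, and FCMR was smaller in size than the second. In the authors' deposited table the median log2 fold change of the higher genes is 1.5, above the 1.32 of CD83. For FCMR the log2 fold change there is -1.48, near the median of -1.55 among the lower genes. The authors' medians cover all 190 higher and 236 lower genes, and those with 1 added only the 132 and 160 past the filter. Scale and gene set thus both differ, and the change in placing cannot be credited to the scale alone.

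**Figure D3:**
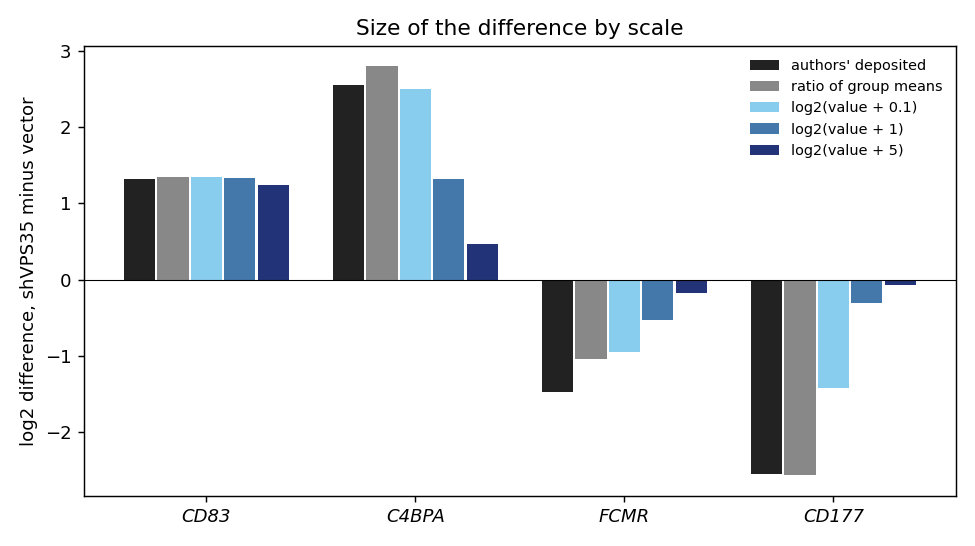
Log2 difference of shVPS35 minus vector (vertical axis) for each of the 4 genes by 5 measures: the authors' deposited log2 fold change, the log2 ratio of group means, and the mean difference of log2(value + 0.1), log2(value + 1) and log2(value + 5). The bars for CD83 stay between 1.24 and 1.35, while those for the other genes shrink as the added number grows.

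FCMR and C4BPA, which moved in opposite directions, lie 181 kb apart on the long arm of chromosome 1. This region carries a cluster of immunoglobulin receptor and complement regulator genes. GENCODE 29 places 6 protein-coding genes between them, PIGR and FCAMR (receptors for polymeric immunoglobulins), C1orf116, PFKFB2, YOD1 and C4BPB, which encodes the beta chain that joins the alpha chain in C4b-binding protein. None of the 6 is listed, and their levels are not analysed here. The shares of listed neighbours below are to be read beside the 2.65% of all tested genes, with untested neighbours counted in, so that nothing is read from a listed neighbour as such. Within 2 megabases of C4BPA no listed gene but FCMR was found among 44 other protein-coding genes (2.27%), and within 2 megabases of FCMR none but C4BPA among 47 (2.13%). Near CD83, RNF182, a ubiquitin ligase gene 137 kb away and the only listed one among 13 protein-coding neighbours (7.69%), rose from 33.8 ± 2.09 to 66.6 ± 4.63 (SD, n = 3 per group; log2(value + 1) difference 0.96 ± 0.07, SE). Of the 123 protein-coding neighbours of CD177, PSG4 and RELB are listed (1.63%), and both fell. PSG4, a pregnancy-specific glycoprotein gene from a family of near-identical copies whose reads may be split, went from 1.61 ± 0.606 to 0.490 ± 0.115. RELB, an NF-kB subunit gene 1638 kb from CD177, went from 5.78 ± 0.563 to 2.48 ± 0.618.

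Related genes were taken from 7 lists holding 162 genes, of which 12 are listed, 6 higher and 6 lower in shVPS35 samples. Of 41 complement components and regulators, C4BPA and C5 are listed, and both rose. The share is 4.88%, against 2.65% of all tested genes, if every list member was tested. C4BPA was itself chosen from the listed genes, which leaves C5 as the 1 other, so nothing is read from the share. C5 encodes the precursor of the anaphylatoxin C5a and of C5b, which starts the membrane attack complex. C5 was 0.20, 0.16 and 0.17 in vector and 0.49, 0.36 and 0.29 in shVPS35 samples. These values do not overlap but are low, and the authors' adjusted p in the deposited table is 0.0418. The other 39 genes of the list are not listed, among them C3 and the membrane-bound regulators CD46, CD55 and CD59. Of 21 immunoglobulin and Fc receptors, FCMR alone is listed (4.76%), a share that rests on a chosen gene, with 0 others listed.

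CD177 shares its protein family with PSCA and LY6D, and these 3 are the listed genes among 25 of the Ly6 and uPAR family (12.0%). That share stands beside 2.65% of all tested genes, if every list member was tested. It includes CD177, itself chosen from the listed genes, and 2 others. All 3 were lower in shVPS35 samples, as were 236 of the 426 listed genes. Whether the family changed as a set was not tested. PSCA, a surface antigen of gastric and prostate epithelium, went from a mean of 160 ± 7.19 to 69.7 ± 3.13 (SD, n = 3 per group), while LY6D, a marker of lymphoid progenitors and squamous epithelium, went from 3.97 ± 0.859 to 1.51 ± 0.404. On the log2(value + 0.1) scale the differences were -1.20 ± 0.05 for PSCA and -1.35 ± 0.24 for LY6D (SE), beside the -1.43 ± 0.24 of CD177. How close they lie depends on the scale, because the log2 ratio of means was -2.57 for CD177 against -1.20 for PSCA and -1.40 for LY6D. With 1 added and no filter, the differences were -0.30, -1.19 and -0.98 in the same order. PLAUR and CD59, of the same family, are not listed.

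Of 19 neutrophil markers, CD177 fell while PRTN3 and CXCR4 rose (15.8% listed). This and the list shares below stand beside 2.65% of all tested genes, if every list member was tested. The shares of the neutrophil and dendritic cell lists include CD177 and CD83, which were chosen from the listed genes. Nothing is read from these shares. PRTN3 encodes proteinase 3, the serine protease that CD177 presents on neutrophils. PRTN3 was 0.77, 0.49 and 0.48 in vector and 1.39, 1.20 and 2.66 in shVPS35 samples. The groups did not overlap, but the third shVPS35 sample was about as high as both others together, and the mean went from 0.580 ± 0.165 to 1.75 ± 0.794. CXCR4, the receptor of the chemokine CXCL12 and not specific to neutrophils, rose from 15.7 ± 1.06 to 36.1 ± 1.93, a 2.30-fold difference beside the 2.56-fold of CD83. MPO, ELANE, CSF3R and S100A8 are not listed. From 24 genes of dendritic cell maturation and costimulation, CD83 rose and the adhesion receptor gene ICAM1 fell, from 14.5 ± 1.82 to 6.96 ± 0.917 (8.33% listed). CD80, CD86, CD40 and CCR7, which mark mature dendritic cells together with CD83, are not listed. CD68, which encodes an endolysosomal protein common in macrophages, was the 1 listed leukocyte marker of 25 (4.0%) and fell from 55.6 ± 1.33 to 16.9 ± 0.369. ESRP1, an epithelial splicing regulator gene and the listed one of 12 epithelial markers (8.33%), was 0.10, 0.13 and 0.05 in vector and 0.25, 0.39 and 0.32 in shVPS35 samples. All 12 listed genes passed at an adjusted p of 0.05 in the limma fit with 0.1 added and no filter, as did 96.5% of the 426 genes.

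**Figure D4:**
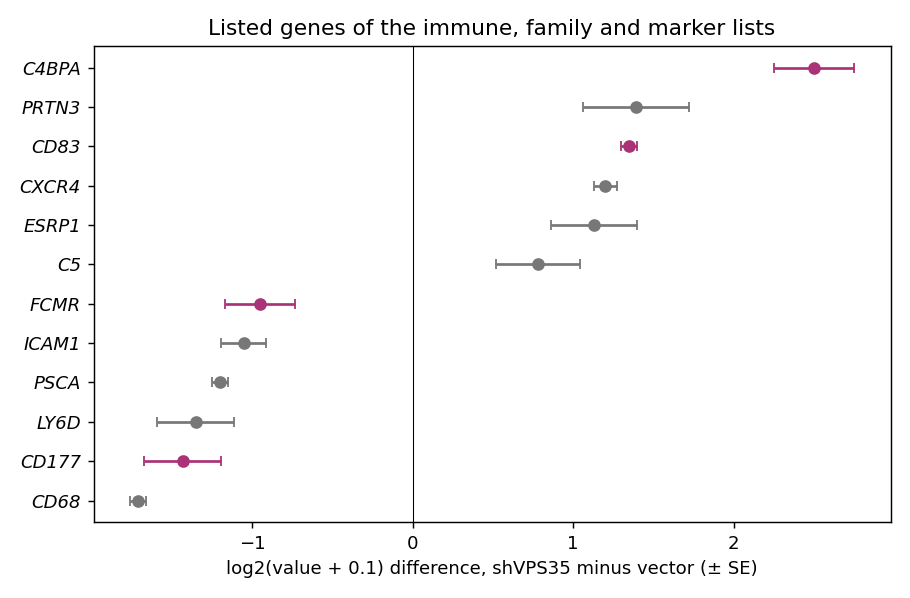
Difference of log2(value + 0.1) between shVPS35 and vector samples (horizontal axis, points with SE bars, n = 3 per group) for the 12 listed genes of the 7 lists, with CD83, C4BPA, FCMR and CD177 in purple. C4BPA is highest at 2.50, and the Ly6 and uPAR family genes PSCA, LY6D and CD177 lie between -1.20 and -1.43 on this scale, while the log2 ratio of means of CD177 is -2.57.

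The listed genes whose pattern over the 6 samples was most like that of each gene were found by the mean absolute difference of centred log2(value + 1) values, among listed genes past the filter. All of them share the same 2-group contrast, so the likeness is a description. Nearest to CD83 were WDR44, a RAB11-binding protein gene (0.05), VAV3, a guanine nucleotide exchange factor gene (0.05), and KCNIP3, a calcium-binding protein gene (0.06). KCNIP3 rose from 0.443 ± 0.0493 to 2.53 ± 0.336, a 5.71-fold difference against 2.56-fold for CD83, so its likeness belongs to the scale with 1 added. WDR44 rose from 19.5 ± 0.275 to 47.1 ± 2.80 and VAV3 from 15.2 ± 0.378 to 40.2 ± 2.96 (SD, n = 3 per group). LINC01671 (0.07), the extracellular matrix gene VIT (0.07) and the septin gene SEPTIN5 (0.08) were nearest to C4BPA. VIT rose from 0.0600 ± 0.0265 to 1.92 ± 0.367, and with nothing added the log2 ratio of its means was 5.0, against 2.80 for C4BPA, so the same limit holds for it. For FCMR the nearest were CYP4F11, a fatty acid hydroxylase gene (0.07), the gap junction gene GJA5 (0.09) and the Polycomb-related gene SFMBT2 (0.10). For CD177 they were FCMR itself (0.11), FRMD6, a Hippo pathway regulator gene (0.11), and ADAM21 (0.13). CD177 lies below the filter that the compared genes passed. Its log2 ratio of means was -2.57, against -1.04 for FCMR, -0.80 for FRMD6 and -1.34 for ADAM21. The likeness of these genes to CD177 thus also belongs to the scale with 1 added.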

How the data were processed

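RNA-seq of 6 MKN28 samples was read from 1 table. Per the labels' protocols, TRIzol-extracted, DNase-treated total RNA was made into Illumina libraries. The submitters' processing notes name fastp, HISAT, RSEM and GRCh38.p13, with no roles or versions. The authors' deposited table gives, per listed gene, an expression signal per sample without a named unit, and, per the file headers, the authors' fold ratio, its log2 value, the p-value and the adjusted p-value. The sources used here do not name their test. The largest adjusted p is 0.0497 and the smallest absolute log2 fold change 1.00. The 16063 genes tested were recovered from p and adjusted p as Benjamini-Hochberg ranks (387 of 422 whole within 0.01).

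Sample values were tested as log2(value + 1) with limma 3.58.1 (trend, robust, statmod 1.5.0, R 4.3.3) on listed genes for which 3 samples had a value of 1 or above, adjusted after Benjamini and Hochberg over all 292 at a threshold of 0.05. The fit was tested on simulated data that gave every gene the same spread and left some genes unchanged. The listed genes were all called beforehand, so that test is no check of their p-values. This scale shrinks the fold change of low genes. Depth is unknown, so precision was judged from replicates. Python 3.11.15, pandas 2.3.3 and scipy 1.17.1 did the rest. Positions are from GENCODE 29 (GRCh38), which matched 421 of 426 identifiers. Named genes were VPS35, the 4 genes, listed members of 7 lists, listed genes within 2 megabases, and the 3 nearest in pattern. Genes, lists and motifs were chosen with earlier results of these data known. Alternatives were pseudocounts of 0.1 and 5, no filter, a filter of 5, median centring, limma without trend and robust estimates, a replicate block, and each sample left out.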

Additional observations from a re-analysis of the deposited data

How the results depend on the processing

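The differences of CD83, C4BPA, FCMR and VPS35 kept their direction and side of the threshold in all 54 values that 14 alternative settings gave. Since the genes were listed for differing between these samples, this is a description and no sign of stability. Their limma adjusted p-values ran from 1.85e-08 to 8.96e-06 for CD83, from 1.19e-05 to 1.12e-04 for C4BPA and from 0.00161 to 0.00748 for FCMR. Leaving out each sample in turn gave 1.30 to 1.35 for CD83, 1.25 to 1.43 for C4BPA, -0.59 to -0.47 for FCMR, -0.33 to -0.29 for CD177 and -2.31 to -2.12 for VPS35 on the log2(value + 1) scale. CD177, below the filter and so without a test at -0.30, moved to -1.43 with a pseudocount of 0.1 (with or without the filter, the latter added after seeing the data) and to -0.07 with 5, by the construction of the scale. A filter of 5 left 141 genes tested and 62 higher and 78 lower calls, against 132 and 160, because fewer genes were tested, and C4BPA, FCMR and CD177 gave no value there. Centring, the replicate block and limma without trend gave none for CD177. With the replicate number as a block CD83 stayed at 1.33 (limma adjusted p = 8.96e-06) and no call among CD83, C4BPA, FCMR and VPS35 changed. Same-numbered samples did not deviate together (correlations of -0.06, -0.09 and 0.03 across genes), so the numbers were not taken to pair samples. Depth is unknown, and no read counts stand behind the low values of CD177.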
